A study of Sus scrofa with 599 samples.

Results

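The nuclear-encoded subunits of the mitochondrial respiratory chain were followed across 4 adipose tissues (ATs) of female Bama pigs under 3 nutritional conditions. The members were the protein-coding genes (PCGs) whose symbol starts with NDUFA, NDUFB, NDUFC, NDUFS, NDUFV, UQCR, COX4 to COX8, CYC1 or ATP5, together with SDHA to SDHD, and the assembly factors named NDUFAF were left out. This gave 65 of the 21280 PCGs, of which 28 belong to complex I, 4 to complex II, 7 to complex III, 15 to complex IV and 11 to complex V. NDUFA4 and NDUFA4L2 were counted with complex IV, where the NDUFA4 protein is now placed.

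The tissues were the greater omentum (GOM), the mesenteric adipose (MAD) and the retroperitoneal adipose (RAD), which are visceral, and the upper layer of backfat (ULB), which is subcutaneous. All animals were adult females of this miniature breed. Pigs of the normal condition (NC) received a normal diet, pigs of the weight-gain group (WG) a high-fat diet over 22 weeks, and weight-loss pigs (WL) were taken from the high-fat group and then held for 12 weeks on a ration cut to 10% of the usual caloric intake. RNA-seq libraries numbered 9 for NC GOM, 12 for NC MAD, 12 for NC RAD, 5 for NC ULB, 45 for WG GOM, 36 for WG MAD, 39 for WG RAD, 38 for WG ULB and 10 for WL in each tissue. The RNA is that of whole tissue, so fewer cells of a type and less RNA per cell cannot be told apart. No group separates the high-fat diet from the weight it produced, and WL pigs differ from NC pigs in both earlier diet and present ration.

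Complex I (NADH dehydrogenase) and complex II (succinate dehydrogenase) pass electrons from fuels to ubiquinone, complex III hands them to cytochrome c, and complex IV reduces oxygen with them. Complex V, the ATP synthase, uses the proton gradient that complexes I, III and IV build. Most subunits are encoded in the nucleus, a few core subunits of complexes I, III, IV and V in the mitochondrial genome, and several subunits of complex IV exist as isoforms with their own tissue pattern. In white AT the chain supplies ATP for fatty acid synthesis, esterification and adipokine production.

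The libraries were not all alike, and the values that touch the members are given first. The share of summed TPM (a level per transcript length that sums to the same total in every library) on PCGs split them at 88%, and libraries below that value made up 7 of 9 in NC GOM, 2 of 12 in NC MAD, 6 of 12 in NC RAD and 2 of 5 in NC ULB. In WG such libraries numbered 3 of 45, 2 of 36, 0 of 39 and 1 of 38, and in WL 6, 6, 2 and 3 of 10, in the order GOM, MAD, RAD and ULB. Each comparison was therefore also made with a term for this split and with the libraries above it alone, which leaves only 2 libraries in NC GOM. The share of TPM on mitochondria-encoded genes ran from 0.53% to 37.4%, so a level in TPM depends on it, and a second scale over nuclear PCGs was used beside it. One library, WG GOM replicate 35, held 3337098 counts on PCGs, the fewest of all. In it 41 members lay below and 17 above every other WG GOM library, and the counts of members that passed against WG GOM are given with and without it. The adipocyte markers (ADIPOQ, PLIN1, LIPE, FABP4, CIDEC, LEP, LPL and CFD) were present in all groups, with a summed level of 4523 TPM or more in every library. The sum was lowest in NC GOM (median 8544 TPM, from 5710 to 10885), against medians of 14247 to 23816 TPM in the other groups. Summed lymphocyte markers reached 1036 TPM in 1 WL MAD library (WL MAD median 59.1 TPM) and 496 TPM in 1 WG MAD library, against 94.6 TPM at most in the other tissues. The replicate numbers in the labels are not stated to mark a pig.

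Averaged over the 65 members, the mean level in log2(TPM + 1) was lowest in NC GOM, at 5.87 ± 0.16 (SD, n = 9). The other NC tissues had 6.32 ± 0.38 (MAD, n = 12), 6.35 ± 0.38 (RAD, n = 12) and 6.42 ± 0.34 (ULB, n = 5). The 5 NC ULB samples, replicates 2, 5, 7, 9 and 12, had mean levels of 6.65, 6.17, 6.78, 5.97 and 6.53. Only the NC GOM libraries, from 5.58 to 6.07, lay together at the low end, and they overlapped with the lowest samples of NC MAD, RAD and ULB.

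In WG the mean level was 6.48 ± 0.41 in GOM (n = 45), 6.61 ± 0.35 in ULB (n = 38), 6.58 ± 0.27 in RAD (n = 39) and 6.45 ± 0.30 in MAD (n = 36). The WG GOM value was 6.51 ± 0.34 without replicate 35. In WL the values were 6.32 ± 0.14, 6.33 ± 0.12, 6.44 ± 0.10 and 6.43 ± 0.12 in the order GOM, MAD, RAD and ULB (n = 10 each). WL thus had the smallest spread between samples in each tissue. No test was made of this mean, since the single genes carry the tests.

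The difference between NC and WG was largest in GOM, at 0.60 on the log2(TPM + 1) scale and 0.25 on the scale over nuclear PCGs. In MAD it was 0.13 in TPM and -0.06 on the nuclear scale, and in RAD 0.22 and -0.01, so the sign in these 2 tissues depended on the scale. In ULB it was 0.19 and 0.12. From WG to WL the mean was lower in all 4 tissues on both scales, by -0.15, -0.12, -0.14 and -0.18 in TPM and by -0.14, -0.16, -0.17 and -0.25 on the nuclear scale, in the order GOM, MAD, RAD and ULB. The comparisons NC to WG, WG to WL and NC to WL share samples and are not independent of each other.

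**Figure D1:**
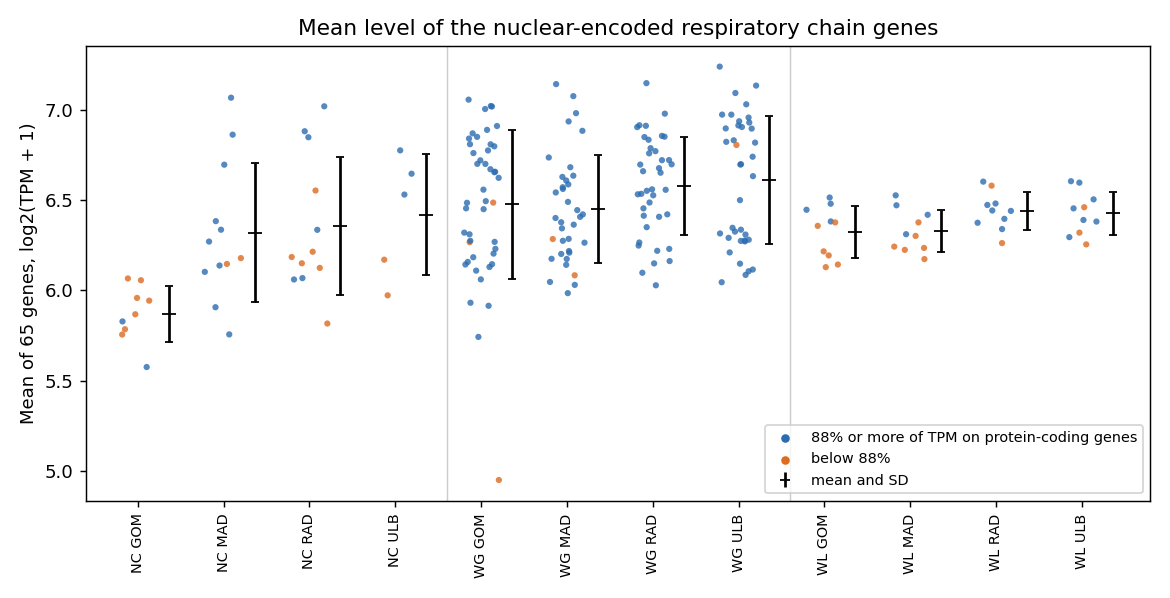
Mean level of the 65 nuclear-encoded respiratory chain genes in each library (points), as log2(TPM + 1), for the 12 groups of diet and tissue, with the mean and SD of each group. The 9 NC GOM libraries lie between 5.58 and 6.07, and the WL groups have the narrowest spread (SD 0.10 to 0.14).

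Single genes were tested with edgeR's quasi-likelihood test on estimated counts, with Benjamini-Hochberg adjustment over all PCGs tested, and a gene passed at an adjusted p below 0.05. COX6B2, the testis form of a complex IV subunit, was in no group above the limit of 0.5 TPM in 80% of the samples (medians of 0 to 0.62 TPM) and was not tested, which left 64 members. Positive values of the log2 fold change mean a higher level in the second group named.

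The comparison of NC with WG had the most members that passed in GOM. From NC GOM to WG GOM, 34 of 64 members rose and 3 fell, where 18.7% of all PCGs tested rose and 19.9% fell. The median log2 fold change of the members was 0.54, and 55 of 64 were positive. All 5 complexes took part. In complex I 13 of 28 members rose, in complex II 3 of 4, in complex III 6 of 7, in complex IV 5 of 14 and in complex V 7 of 11, and the 3 that fell all belonged to complex IV. Without WG GOM replicate 35 the counts were 39 and 3. With the libraries above the split alone, which keeps 2 NC GOM samples, 1 member passed, and so few samples cannot separate the split from the diet. With a term for the split the count stayed within 1.5 times the main one. As 7 of 9 NC GOM but 3 of 45 WG GOM libraries lay below the split, it and the diet cannot be fully told apart here. WG GOM libraries were divided further. Without replicate 35, the mean of the other members had an r of -0.72 with NDUFA4L2 and of 0.79 with COX4I2. In log2(TPM + 1), NDUFA4L2 lay at 2.09 to 3.86 in NC GOM but reached 0.29 in WG GOM. Values as low as 0.92 and 1.01 occurred in NC MAD and NC RAD. The part of this divide in the members' rise was not tested. The marker levels moved with this comparison. Of the 8 adipocyte markers 4 rose, as did all 3 red blood cell markers tested, and the part of cell content in the members' rise was not tested.

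UQCRC1, a core protein of complex III, had the lowest adjusted p of the members that rose. Its level was 18.9 to 41.6 TPM in NC GOM (median 31.4) and 33.96 to 173 TPM in WG GOM (median 91.9), where the highest value is replicate 35 and the next 143.5 TPM. In 42 of 45 WG libraries it was above the highest NC library, so the groups barely overlapped. The log2 fold change was 1.32 (SE 0.26, adjusted p = 8.3e-05, edgeR), and 1.30 without replicate 35. It was 1.42 with the libraries above the split alone, where the adjusted p was 0.098.

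Of the other complex III members, UQCRFS1, the Rieske iron-sulphur protein, rose by a log2 fold change of 0.96 (SE 0.30, adjusted p = 0.0093). UQCRC2 and CYC1, the second core protein and cytochrome c1, rose by 0.67 and 0.54.

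In complex I, NDUFS6, an accessory subunit needed late in assembly, was measured at 22.03 to 34.5 TPM in NC GOM (median 27.2). In WG GOM it ran from 20.9 to 133 TPM (median 69.2) without replicate 35, which stood at 588 TPM. In 40 of 45 WG libraries it was above all of NC. Its log2 fold change was 1.37 (SE 0.38, adjusted p = 0.0042), and 1.14 (adjusted p = 5.6e-04) without that library. NDUFS4, an accessory subunit of the electron-input arm, rose by 1.33 (SE 0.40, adjusted p = 0.0078), and NDUFB5, a subunit of the membrane arm, by 1.18 (SE 0.36, adjusted p = 0.0081).

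The core subunits of complex I did not all pass. NDUFS3 and NDUFS8, subunits of its catalytic arm, had 0.35 and 0.11 (adjusted p = 0.13 and 0.78). NDUFV1, which binds NADH and FMN, was at 20.9 to 39.1 TPM in NC GOM (median 31.4) and at 22.8 to 95.3 TPM in WG GOM (median 57.5; from 30.1 TPM without replicate 35), and 39 of 45 WG libraries exceeded the whole NC group. Its log2 fold change was 0.64 (SE 0.17, adjusted p = 0.0023). NDUFS1, an iron-sulphur subunit of the same arm, rose by 0.68, and NDUFB8, a membrane-arm subunit, by 0.72. Without replicate 35 these 3 values were 0.68, 0.73 and 0.78.

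The promoter of NDUFS6 is shown because this gene had the largest fold change of the members that rose here with all libraries, and because the 250 bases before its RefSeq start hold the motif of NRF1, a transcription factor known for nuclear genes of the respiratory chain. The region is chr16:79000002-79000251 on the minus strand of Sscrofa11.1, it lies upstream of the annotated gene and so outside its exons, and the sequence is RefSeq's. Capitals mark 2 overlapping matches to the letters CGCATGCGC, a core of that motif, 1 on each strand, 68 to 59 bases before the start.

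NDUFS6: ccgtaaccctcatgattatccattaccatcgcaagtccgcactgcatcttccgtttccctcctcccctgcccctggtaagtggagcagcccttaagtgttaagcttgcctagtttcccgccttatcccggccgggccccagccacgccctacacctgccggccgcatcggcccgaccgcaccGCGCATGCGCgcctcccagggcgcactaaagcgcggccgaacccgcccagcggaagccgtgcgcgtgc

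Of 19556 promoters of this length, 280 (1.43%) held these letters on either strand. Among the 51 members with a RefSeq position they were in 5 (NDUFA5, NDUFB4, NDUFS6, ATP5ME and ATP5PO). Of these, ATP5ME, a small subunit of the membrane part of the ATP synthase, also rose in GOM, by 1.05 (SE 0.30, adjusted p = 0.0051), and the other 3 did not pass there. The ETS motif CCGGAAGT was in the promoters of 6 members (NDUFA10, NDUFS1, NDUFV1, SDHD, COX5B and ATP5F1A) and in 2.87% of all promoters, and the YY1 motif AAGATGGCG in SDHD and in 0.777% of all, both searched on both strands. Only whole matches were counted. The members' share was not set against these shares, because positions were known for 78.5% of the members only.

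In complex II, SDHA, the flavoprotein that oxidizes succinate, rose by 0.54 (SE 0.19, adjusted p = 0.02). Its NC GOM libraries lay between 22.4 and 34.01 TPM and its WG GOM libraries between 22.3 and 81.2 TPM, with 35 of 45 above all of NC. The iron-sulphur subunit SDHB was the member of the complex that did not pass. Its levels were 101 to 153 TPM in NC GOM and 77.7 to 196 TPM in WG GOM (from 107.9 TPM without replicate 35), which overlap widely.

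In complex V, ATP5F1A, the alpha subunit of the catalytic head, was at 61.7 to 101.8 TPM in NC GOM (median 83.3). In WG GOM it lay between 74.2 and 260.3 TPM (median 167) without replicate 35, and 39 of 45 WG libraries were above all of NC. The log2 fold change was 0.83 (SE 0.22, adjusted p = 0.0033). ATP5MC1 and ATP5MC3, which encode the same c subunit of the rotor, rose by 1.07 and 0.54, and ATP5IF1, the inhibitor that blocks ATP hydrolysis, by 0.58.

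In the other tissues few members passed from NC to WG. From NC MAD to WG MAD 0 of 64 rose and 4 fell (9.14% and 9.45% of all PCGs), and DESeq2 also gave 4. From NC RAD to WG RAD 3 rose and 9 fell (16.7% and 17.6% of all PCGs), and 1 was left with the term for the library split. From NC ULB to WG ULB 0 passed in edgeR and 0 in DESeq2 (0.618% and 2.24% of all PCGs), and 2 had an unadjusted p below 0.05. The median log2 fold changes were -0.05, 0.01 and 0.10. In RAD the 3 that rose were ATP5MC1 (0.82), COX4I2 (0.69) and NDUFB7, an accessory subunit of complex I (0.43), and these 3 also rose in GOM.

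Whether the response in GOM differed from the other tissues was tested directly in a fit over all libraries. The NC to WG change was more positive in GOM than in MAD for 16 of 64 members and less positive for 0, where 5.77% and 4.28% of all PCGs differed in these directions. It was more positive in GOM than in RAD for 3 (NDUFV1, UQCRC1 and ATP5F1D, a subunit of the ATP synthase stalk; 2.55% and 1.02%) and than in ULB for 2 (NDUFV1 and COX8A, a small subunit of complex IV; 2.44% and 1.43%). Without WG GOM replicate 35 these counts were 10, 3 and 0, and with the libraries above the split alone 0, 0 and 1. UQCRC1 differed by 1.18 against MAD (SE 0.31, adjusted p = 0.008) and by 1.01 against RAD (SE 0.30, adjusted p = 0.039). Between MAD, RAD and ULB 0 members differed in edgeR, and 0 at an unadjusted p below 0.05, where at most 0.816% of all PCGs passed in one direction. DESeq2 was not run on these differences.

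**Figure D2:**
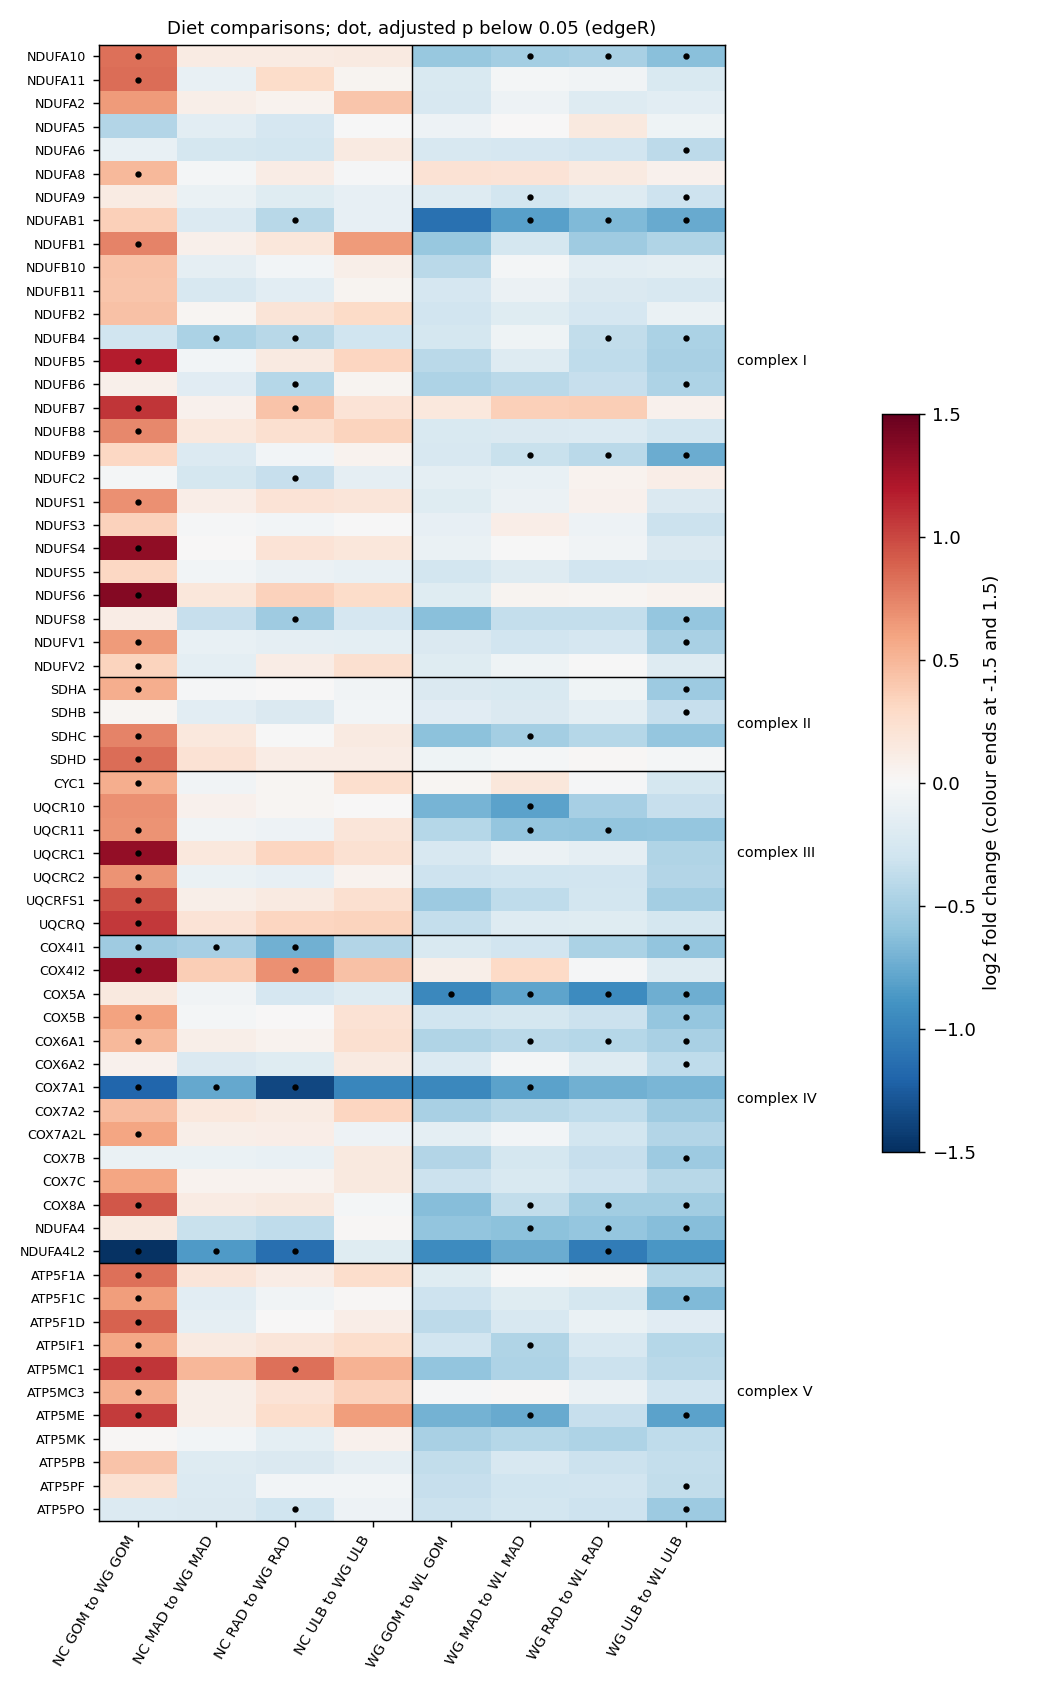
Log2 fold change of the members (rows, ordered by complex) in the diet comparisons of the 4 tissues (columns), with a mark where the adjusted p was below 0.05. From NC to WG most of the members that rose are in the column of GOM, and from WG to WL the values are mostly negative in all 4 tissues.

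In complex IV members moved in opposite directions from NC to WG in GOM. In RAD this was also so in complex I, where NDUFB7 rose and 5 members fell, and in complex V, where ATP5MC1 rose and ATP5PO fell (-0.30). COX4I1 and COX4I2 are the general and the lung-enriched, oxygen-sensitive form of a regulatory subunit, COX7A1 and COX7A2 the heart and muscle form and the general form of another, and NDUFA4L2 is a hypoxia-induced relative of NDUFA4. COX4I1 fell from NC to WG in GOM (-0.54), MAD (-0.50) and RAD (-0.72). COX7A1 fell in the same tissues by -1.18, -0.77 and -1.37, and NDUFA4L2 by -1.49, -0.86 and -1.13. These were the only members that fell in 3 tissues.

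COX4I1 was one of the most abundant members, with 428 to 762 TPM in NC GOM (median 639.5) and 217 to 852 TPM in WG GOM (median 522) without replicate 35. Of the 45 WG libraries 36 were below the NC median, and the groups overlapped. The SE in GOM was 0.17 (adjusted p = 0.0099). COX4I2 went the other way, from 14.1 to 34.5 TPM in NC GOM (median 22.8) to 16.4 to 127 TPM in WG GOM (median 72.5) without replicate 35, which was listed at 0. In 37 of 45 WG libraries it was above all of NC, and its log2 fold change was 1.30 (SE 0.33, adjusted p = 0.0019).

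NDUFA4L2 was low in all groups, with 3.25 to 13.5 TPM in NC GOM (median 6.96). In WG GOM it was 0.22 to 8.99 TPM (median 2.19) without replicate 35, and 28 of 45 libraries lay below all of NC (SE 0.30, adjusted p = 1.4e-04). NDUFA4 itself, with medians of 192 to 353 TPM over the 12 groups, did not pass from NC to WG in any tissue.

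COX7A1 depended on the library split. The 7 NC GOM libraries below the split had 42.7 to 62.0 TPM and the 2 above it 7.75 and 8.66 TPM, while WG GOM ran from 7.77 to 59.5 TPM (median 21.97) without replicate 35. With libraries above the split alone, its NC to WG change in GOM was 1.40 with an adjusted p of 0.19, against -1.18 (SE 0.33, adjusted p = 0.0038) over all libraries. In NC MAD and RAD the 2 kinds of library overlapped, with 56.5 to 64.7 and 39.05 to 63.9 TPM below the split and 7.45 to 63.2 and 8.41 to 69.8 TPM above it. The 5 NC ULB samples, replicates 2, 5, 7, 9 and 12, had 28.03, 39.4, 21.5, 48.3 and 9.97 TPM, and the higher values of replicates 5 and 9 are those below the split. In RAD the change of COX7A1 with a term for the split was -0.84 (adjusted p = 0.10). That split's part in these values of COX7A1, COX4I1 and NDUFA4L2 cannot be told apart from diet in GOM. COX6A2 and COX7A1 are also muscle forms, and summed skeletal muscle markers had medians of 2.79 to 6.42 TPM over the groups, with 127 TPM as the highest library.

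**Figure D3:**
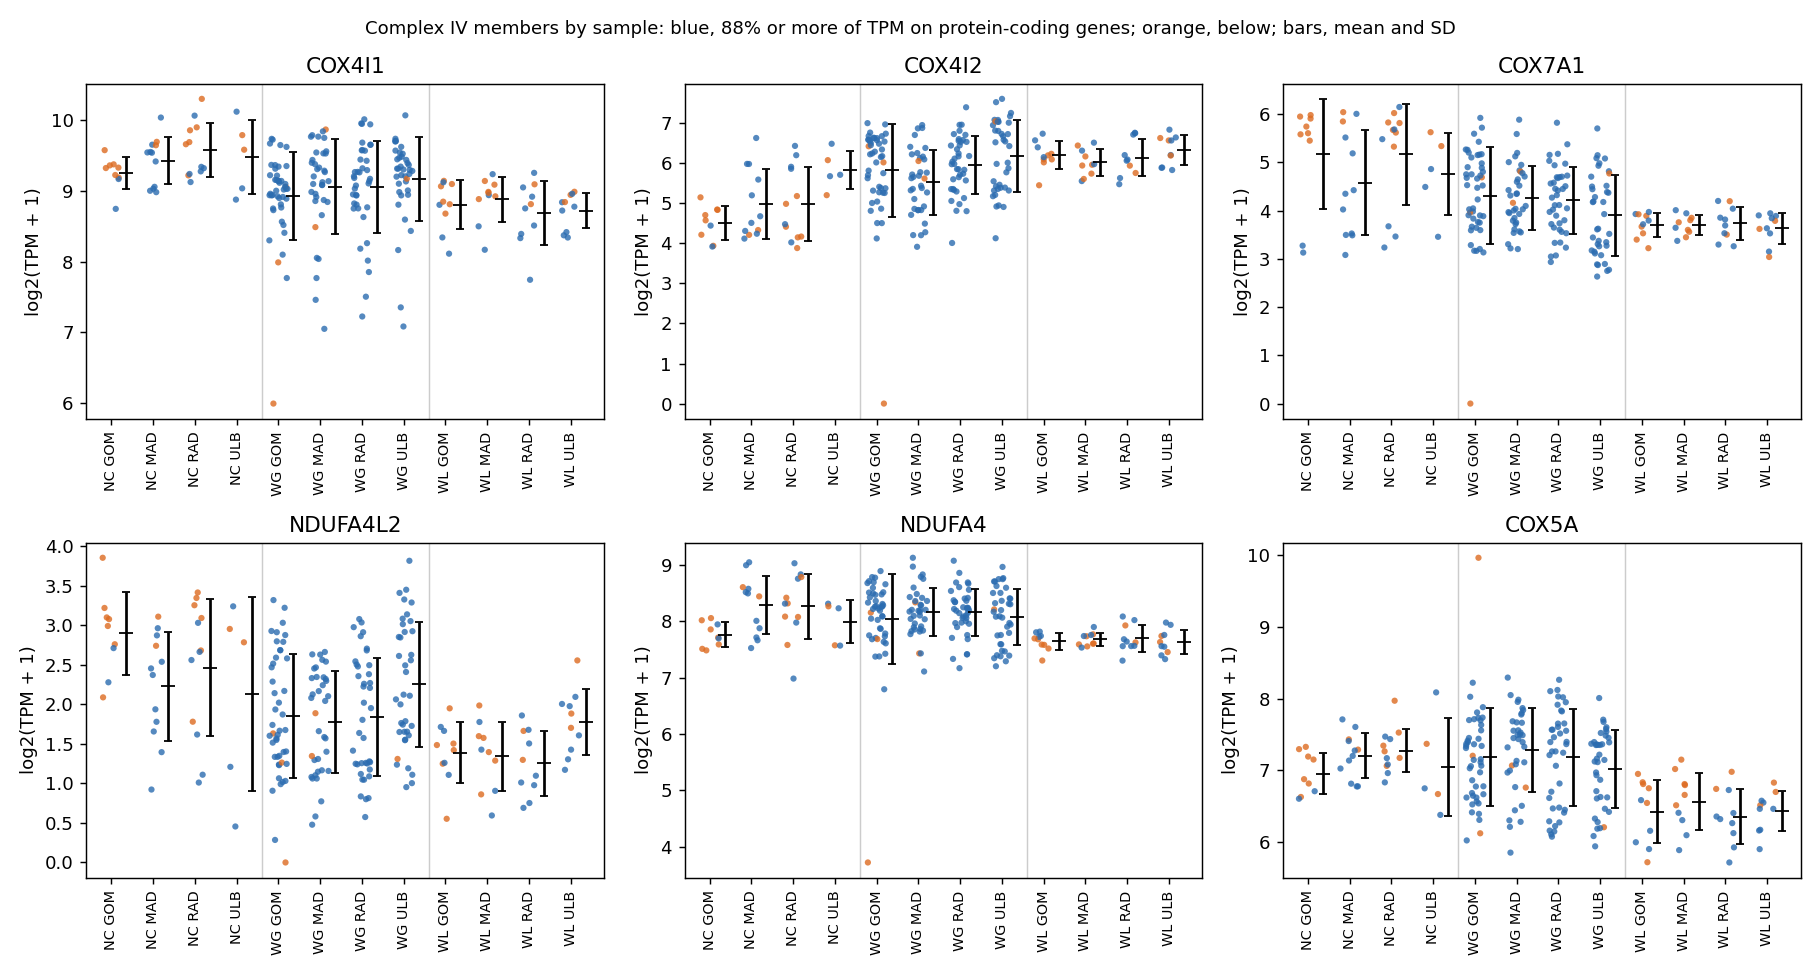
Levels of isoforms of complex IV in each library, as log2(TPM + 1), by diet and tissue. COX4I2 is higher in WG GOM than in NC GOM (medians of 71.4 and 22.8 TPM), NDUFA4L2 and COX7A1 passed as lower in WG than in NC in GOM, MAD and RAD but not in ULB (-0.18 and -0.98), COX7A1 in GOM turns to 1.40 with libraries above the split alone, and the few NC GOM libraries with low COX7A1 are the 2 above the 88% split.

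From WG to WL the members that passed were lower in WL in all 4 tissues. Over all libraries they were fewest in GOM, with a share there under that of all PCGs. Without WG GOM replicate 35, GOM was not the lowest, with 12 that fell against 10 in RAD. In GOM 0 members rose and 1 fell (4.2% of all PCGs rose and 4.3% fell), 0 rose and 14 fell in MAD (15.6% and 15.7%), 0 rose and 10 fell in RAD (6.78% and 6.31%), and 0 rose and 23 fell in ULB (8.52% and 8.7%). At an unadjusted p below 0.05, and counting both directions, the numbers were 19, 23, 24 and 35. DESeq2 gave 0 higher and 12, 16, 16 and 29 lower. The medians over the members were -0.28, -0.24, -0.28 and -0.41, and 51 of 64 were negative in all 4 tissues. Without WG GOM replicate 35 the count in GOM was 12 lower. The change of 0 members differed between tissues in edgeR's test of the difference, where at most 4.53% of all PCGs passed in one direction, and at an unadjusted p below 0.05 the most was 6 (MAD against ULB). In MAD the 7 lymphocyte markers all rose, and their part there was not tested. With libraries above the split alone 1 member passed in MAD.

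By complex, the 23 that fell in ULB were 9 of 28 in complex I, 2 of 4 in complex II, 0 of 7 in complex III, 8 of 14 in complex IV and 4 of 11 in complex V. In RAD they were 4, 0, 1, 5 and 0, and in MAD 4, 1, 2, 5 and 2. Complex IV therefore had 5 or more in each of these tissues.

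COX5A, a subunit on the matrix side of complex IV, fell in all 4 tissues. In WG ULB it was at 60.3 to 256 TPM (median 141) and in WL ULB at 58.7 to 113 TPM (median 88.7), with 10 of 10 WL libraries below the WG median. The groups overlapped at their lower ends. The log2 fold changes were -0.97 (SE 0.28, adjusted p = 0.018) in GOM, -0.79 (SE 0.21, adjusted p = 0.0034) in MAD, -0.95 (SE 0.23, adjusted p = 0.004) in RAD and -0.74 (SE 0.17, adjusted p = 0.0017) in ULB. In GOM the value was -0.75 without replicate 35, in which COX5A stood at 998 TPM.

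Of the members that fell in 3 tissues, NDUFAB1, the mitochondrial acyl carrier protein that is also a complex I subunit, changed by -0.82 in MAD, -0.66 in RAD and -0.75 in ULB. Its WL ULB samples had 18.2 to 25.3 TPM (median 20.0) against 14.2 to 59.997 TPM (median 33.8) in WG ULB, and 10 of 10 lay below the WG median. NDUFA4 changed by -0.61, -0.58 and -0.64 in the same tissues and COX6A1, the general form of another complex IV subunit, by -0.41, -0.43 and -0.49. COX8A, NDUFA10 and NDUFB9 (both accessory subunits of complex I) completed this set.

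In ULB the falls took in catalytic subunits of complexes I and II. SDHA was at 34.8 to 113 TPM in WG ULB (median 70.7) and at 42.7 to 64.4 TPM in WL ULB (median 52.4), a change of -0.54 (SE 0.18, adjusted p = 0.028). All 10 WL libraries lay below the WG median but inside the WG range. NDUFV1 fell by -0.49 and SDHB by -0.35. In complexes IV and V, the regulatory subunit COX4I1 fell by -0.60, and ATP5PO, which links the head and stalk of the ATP synthase, by -0.55. UQCRC1 and the other complex III members did not pass in ULB, and the UQCRC1 medians were 104 TPM in WG and 88.4 TPM in WL.

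Set against NC, the WL tissues differed in opposite directions. From NC GOM to WL GOM 25 members were higher and 11 lower (25.2% and 27.5% of all PCGs), while from NC to WL 2 were higher and 21 lower in MAD (22.2% and 23.8%), 1 and 21 in RAD (18.8% and 22.5%), and 0 and 15 in ULB (6.95% and 11.2%). With libraries above the split alone the numbers that passed were 6 in MAD and 13 in RAD. In GOM the split changed the balance, and with libraries above it alone 38 members were higher and 2 lower. UQCRC1 (1.07), NDUFS6 (1.17), NDUFS4 (1.22) and COX4I2 (1.40) were above NC in WL GOM, and the WL GOM range of UQCRC1, 58.7 to 99.3 TPM, lay wholly above that of NC GOM.

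Lower than NC in all 4 tissues were COX4I1, COX5A, COX7A1, NDUFA4, NDUFAB1, NDUFB4, NDUFS8 and ATP5PO. In GOM this did not hold for COX7A1 with libraries above the split alone (0.53), where COX4I1, COX5A, NDUFA4, NDUFAB1 and ATP5PO had -0.50, -0.66, -0.24, -0.40 and -0.11 and none of these 5 passed. In ULB, the NC values of COX4I1 were 469, 883, 524, 766 and 1112 TPM for replicates 2, 5, 7, 9 and 12, and WL ULB lay between 323 and 507 TPM. The highest WL sample overlapped only with replicate 2 of NC. Its log2 fold change was -1.05 (SE 0.20, adjusted p = 0.002). COX5A in the same NC samples had 82.1, 164, 106, 101 and 271 TPM, and in WL ULB 58.7 to 113 TPM, so these groups overlapped more (-0.94, SE 0.22, adjusted p = 0.0077).

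Between tissues on the normal diet, GOM stood below the other 3. From NC GOM, 30 members were higher and 0 lower in NC MAD (12.2% and 11.9% of all PCGs), 41 and 0 in NC RAD (15.1% and 12%), and 33 and 0 in NC ULB (16.2% and 13.5%). With DESeq2 the numbers were 36, 47 and 35, all higher. Same-numbered samples deviated together between GOM and ULB. With the number as a replicate block, which keeps only the 4 shared numbers, 7 were higher and 0 lower in ULB. With the libraries above the split alone 0 passed in MAD and in RAD. Between MAD, RAD and ULB of NC 0 passed in edgeR and in DESeq2, with 1, 4 and 2 at an unadjusted p below 0.05 (MAD to RAD, MAD to ULB and RAD to ULB). Of all PCGs 0.604% and 1.99%, 4.92% and 3.38%, and 3.13% and 1.55% were higher and lower in these 3. Mesothelial markers, too, were at a median of 174 to 273 TPM in GOM and of 8 to 17 TPM elsewhere, and their part was not tested.

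UQCRC1 had log2 fold changes of 1.06, 1.12 and 1.48 from NC GOM to MAD, RAD and ULB. In the 5 NC ULB samples it was at 111, 55.6, 149, 36.5 and 101 TPM (replicates 2, 5, 7, 9 and 12), of which 4 were above the NC GOM maximum of 41.6 TPM. NDUFV1 had 0.86, 1.02 and 1.32, and SDHA 0.55, 0.72 and 1.22. In ULB, COX4I2 was also higher, by 1.29 (SE 0.27, adjusted p = 0.0022).

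In WG it was ULB that differed most often from the other tissues. From GOM to MAD 0 passed in edgeR (6.78% and 7.56% of all PCGs, 1 member at an unadjusted p below 0.05) and 3 in DESeq2, from GOM to RAD 5 were higher and 0 lower (15.2% and 15.9%), and from GOM to ULB 26 and 0 (21.5% and 23.2%). Without WG GOM replicate 35 the higher and lower counts were 3 and 0 in MAD, 9 and 0 in RAD and 28 and 1 in ULB. From MAD to RAD 5 were higher and 0 lower (7.57% and 9.03%), from MAD to ULB 27 and 1 (20.2% and 22.2%), and from RAD to ULB 10 and 1 (17.8% and 16.9%). Same-numbered samples deviated together in RAD and ULB, where the replicate block gave 15 higher and 9 lower. Of the same-numbered pairs, 35 of 36 were above 0.1 in GOM and MAD, 37 of 39 in GOM and RAD, 37 of 38 in GOM and ULB, and 30 of 31 in MAD and RAD. The median correlation of same-numbered samples in them was 0.58 to 0.64, against -0.10 to -0.03 for other pairs of samples. In each of these tissue pairs more members passed with the block, as given below, than in the counts above. The counts above ignore the numbers, so few calls there do not mean few differences between tissues. SDHA was higher in ULB than in GOM, MAD and RAD, by 0.65, 0.65 and 0.45, and NDUFB9 by 0.76, 0.67 and 0.41. UQCR10, a small complex III subunit, was the member lower in ULB than in MAD (-0.39) and RAD (-0.35).

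In WL the tissues differed in few members. From GOM 2 members (UQCRFS1 and ATP5F1A) were higher in RAD and 0 lower (8.6% and 10.1%), and 1 (NDUFA10) was higher in ULB and 0 lower (11.6% and 13.6%). From MAD 1 (NDUFS1) was higher in RAD and 0 lower (3.45% and 6.43%), or 3 with the replicate block, which the check of the numbers allowed there. From RAD to ULB 0 members were higher and 1 lower (2.85% and 2.57%). From GOM to MAD and from MAD to ULB 0 passed in edgeR and DESeq2, with 1 and 8 at an unadjusted p below 0.05 (2.47% and 4.22%, and 9.63% and 11.5%, of all PCGs were higher and lower).

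Within WG the mean level of the members followed the sample number across tissues. Over samples that share a number, Pearson's r was 0.78 between GOM and MAD (n = 36, Spearman's rho 0.77), 0.45 between GOM and RAD (n = 39, rho 0.57), 0.78 between GOM and ULB (n = 38, rho 0.75), 0.58 between MAD and RAD (n = 31, rho 0.58), 0.75 between MAD and ULB (n = 30, rho 0.73) and 0.72 between RAD and ULB (n = 33, rho 0.73). Without the 2 samples farthest from the median, the value of GOM and RAD was 0.73 and the others were 0.51 to 0.77. On the scale over nuclear PCGs the values of r were 0.22 to 0.68. In NC and WL, with 9 to 12 shared numbers, r ran from -0.59 to 0.44. These are descriptions with no test, and the points share the mitochondrial share of TPM. Neighbouring numbers also lay together. In WG ULB the mean level was 6.70 to 7.24 in replicates 18 to 36 and 6.09 to 6.35 in replicates 37 to 44. NDUFA4L2 was at 0.95 to 2.11 and at 2.85 to 3.82 in these 2 runs, in log2(TPM + 1). Whether the values of r belong to the animals or to such runs of libraries was not tested.

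**Figure D4:**
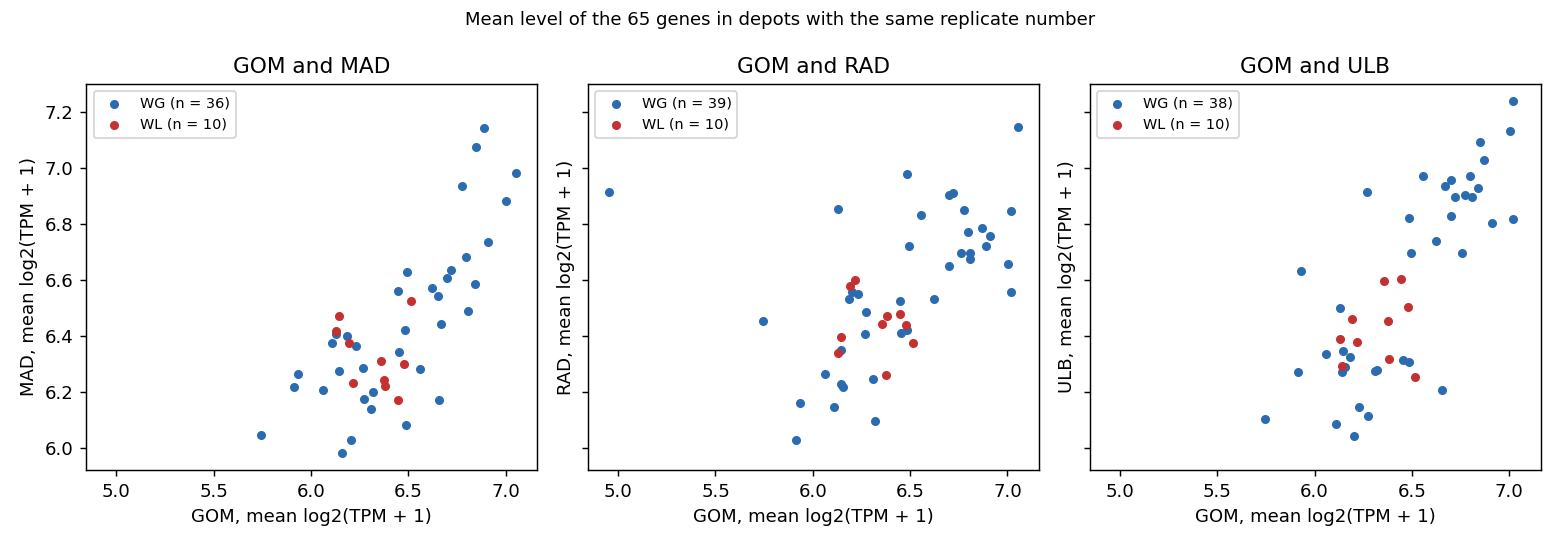
Mean level of the 65 members, as log2(TPM + 1), in same-numbered libraries of GOM and of MAD, RAD or ULB, with WG and WL points in different colours. Among WG, samples high in one tissue tend to be high in the other, with Pearson's r from 0.45 (GOM and RAD) to 0.78 (GOM and ULB). Among WL, r was -0.24, -0.17 and 0.22 in the order MAD, RAD and ULB.

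Within each WG tissue the mean level was lower where the mitochondria-encoded share of TPM was higher, with r of -0.59, -0.65, -0.79 and -0.89 in GOM, MAD, RAD and ULB (rho -0.53, -0.66, -0.77 and -0.77, and r of -0.52, -0.69, -0.76 and -0.89 without the 2 farthest samples). On the nuclear scale, where the mitochondrial share does not enter the sum, r was -0.39, -0.30, -0.56 and -0.75. Against the summed adipocyte markers r was 0.70, 0.65, 0.33 and 0.57 in TPM (rho 0.74, 0.60, 0.32 and 0.59, and r of 0.69, 0.57, 0.31 and 0.55 without the 2 farthest samples) and 0.64, 0.51, 0.14 and 0.48 on the nuclear scale. Against the red blood cell markers it was 0.58, 0.60, 0.59 and 0.63 in TPM (rho 0.64, 0.72, 0.59 and 0.53, and r of 0.64, 0.68, 0.58 and 0.58 without the 2 farthest samples). Against the endothelial markers it was -0.03, -0.26, -0.45 and -0.53 (rho -0.41, -0.30, -0.44 and -0.58, and r of -0.47, -0.44, -0.35 and -0.55 without the 2 farthest samples). The level thus went with more than one marker list, and these are descriptions with no test.

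Most members varied together in WG. Correlating each with the mean of the other 64 in each tissue, replicate 35 of GOM left out, the median r over the 4 tissues was above 0.5 for 49 members and below 0 for 7, and the median member had 0.84. NDUFB8 and UQCRQ, a small subunit of complex III, had the highest values, at 0.95. At the other end stood NDUFA4L2 (-0.70), COX5A (-0.42), NDUFAB1 (-0.42), COX4I1 (-0.29) and NDUFS8 (-0.11), in each of which all 4 tissues gave a negative r. COX6B2 and NDUFB10 (-0.05 and -0.04) had values around 0. The points share library and depth, and include the runs of numbers named above.

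From NC GOM to WG GOM, where 34 nuclear members rose, 7 of the 13 mitochondria-encoded subunits fell and 0 rose (median -1.67). Of 12 tested in each of the other tissues, 7 fell in RAD, 3 in MAD and 1 in ULB, and 0 rose. From WG to WL 12 of 12 tested fell in each tissue, with medians of -2.98, -2.91, -2.87 and -3.11. Their mean level in log2(TPM + 1) was 12.3 ± 0.43 in NC GOM and 7.88 ± 1.06 in WL GOM. In NC and WG the libraries of 1 tissue differed widely, from 7.09 to 12.9 in WG GOM, which overlaps with all other groups. Tests without the mitochondria-encoded genes left all but 3 named calls of members on the same side.

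Of the other genes of the pathway, all 4 genes listed as mobile electron carriers outside the rule rose from NC GOM to WG GOM, with CYCS, cytochrome c itself, at 0.52 (SE 0.20, adjusted p = 0.035). Of 37 assembly factors 19 rose there and 0 fell (median 0.52), while the numbers were 1 and 2 for MAD, 2 and 3 for RAD and 0 and 0 for ULB. From WG to WL the assembly factors had 2 higher and 1 lower in GOM, 5 and 6 in MAD, 1 and 0 in RAD and 1 and 2 in ULB, with medians between -0.07 and 0.03. In MAD 15.6% of all PCGs rose and 15.7% fell in this comparison, so the counts there are near the background. The subunits' medians in the same comparisons were -0.24 to -0.41.

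The tricarboxylic acid cycle, which delivers NADH and succinate to the chain, had 14 genes tested. From WG to WL 5 fell in GOM, 9 fell and 1 rose in MAD, 7 fell in RAD and 10 fell in ULB. Of all PCGs 4.3%, 15.7%, 6.31% and 8.7% fell in these 4 tissues, and 15.6% rose in MAD. From NC GOM to WG GOM 3 rose and 3 fell, which is near the 18.7% and 19.9% of all PCGs. CS, the citrate synthase that opens the cycle, fell from WG to WL in all 4 tissues, by -0.50, -0.74, -0.37 and -0.66. Its WL ULB libraries had 123 to 196 TPM (median 165) and its WG ULB libraries 167 to 362 TPM (median 227), so the ranges met only between 167 and 196 TPM.

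Among 19 regulators of mitochondrial biogenesis, 3 rose and 3 fell from NC GOM to WG GOM, which is below the 18.7% and 19.9% of all PCGs. PPARGC1A, the coactivator known as PGC-1 alpha, fell by -1.62 (SE 0.42, adjusted p = 0.0024), from a median of 3.88 TPM (0.86 to 16.3) to 1.24 TPM (0.22 to 8.55), with overlapping ranges. ESRRA, a nuclear receptor that acts with it on these genes, rose by 2.09 (SE 0.48, adjusted p = 7.0e-04), from 2.79 to 7.28 TPM in NC GOM (median 4.70) to 4.94 to 175 TPM in WG GOM (median 24.1). The highest ESRRA values in WG MAD, RAD and ULB were 48.4, 39.5 and 37.4 TPM, so the 175 TPM stands far out. A change without that library is not given. TFAM, the factor that packages and transcribes mitochondrial DNA, had 0.38 (adjusted p = 0.066). From WG to WL none of PPARGC1A, ESRRA and TFAM passed in edgeR in any tissue (smallest adjusted p 0.20).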

How the data were processed

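Total RNA depleted of ribosomal RNA was sequenced in stranded libraries. The authors estimated abundance with kallisto 0.43.0 on Sscrofa11.1 with Ensembl annotation plus their own non-coding transcripts and used tximport for sums per gene. The deposited expected counts are these sums, not reads, and were rounded to whole numbers for the tests, and the deposited TPM table holds TPM as the authors computed it. Counts on PCGs ran from 3337098 to 22939420 per library (median 1.68e+07), and depth limits genes of a few TPM, such as NDUFA4L2 and COX6B2, most. Reads of near-identical copies such as processed pseudogenes were split by kallisto, and their part in a member's level was not tested. The deposited A-B index score of chromatin compartments, which the authors gave per bin of the genome, was not used here, because only 51 of the 65 members (78.5%) had a RefSeq position. Of the 245 columns of the TPM table, 236 match a label and 9 do not and were not used. Columns were assigned from the labels only.

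Fits were made with edgeR 4.0.16 in R 4.3.3 (TMM, quasi-likelihood test, 2-sided, Benjamini-Hochberg over all PCGs tested) between pairs of groups, for PCGs above 0.5 TPM in 80% of the samples of at least 1 group. The study's methods also use edgeR between groups, with a limit on the fold change that was not applied here. Differences of differences used 1 fit over all libraries. It took them as independent, although by the study's account the tissues of a group come from the same pigs. A pseudocount of 1 was added for levels on the log2 scale. The members and lists were chosen with earlier results of these data known. Named genes were core subunits, isoforms and inhibitors fixed by symbol, members below the low filter, the up to 5 members with the largest change in each direction among those that passed, and PPARGC1A, ESRRA, TFAM, CS and CYCS. Other members named in a comparison, and those named for a motif, were chosen after their values were seen. For 1 member, counted in the totals and means, single values are not reported here or plotted.

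Alternatives were DESeq2 1.42.0, no filter on low genes, no mitochondria-encoded genes, a term for the library split, libraries above it alone, the replicate number as a block, and NC ULB samples left out in turn. Leaving out WG GOM replicate 35 was chosen after seeing the data. Same-numbered samples were checked for deviating together, by the correlation of their deviations from the group means. Every pair was above 0.1 in 4 of 18 tissue comparisons (NC GOM and ULB, WG MAD and ULB, WG RAD and ULB, WL MAD and RAD), where the numbers were taken to mark pairs. The main counts were made without a block in all tissue comparisons, and the block was fitted only as an alternative. Which libraries form a pair thus comes from the data, since the labels do not state it. P-values measure the spread between libraries. The fits were tested on simulated data.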

Additional observations from a re-analysis of the deposited data

Results flagged for a closer look

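In 156 checks of groups of 4 to 10 samples, 3 samples lay far from the others of their group, and about 1 in 20 such groups is marked by chance alone. COX4I1 had one NC GOM sample at 8.75 on the log2(TPM + 1) scale, below the next at 9.17. ATP5F1A had one WL RAD sample at 7.29, with the next at 7.57. COX6B2 was at 1.00 in one WL ULB sample and listed at 0 in the other 9.

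The change from NC to WG differed between tissues, by the test of the difference itself. It passed against MAD for 16 members, against RAD for 3 and against ULB for 2, all more positive in GOM. Of all PCGs 5.77%, 2.55% and 2.44% were more positive in GOM, and the counts against RAD and ULB are near these shares. With libraries above the split alone 0 members passed against MAD and RAD, and fewer than 2 against ULB. Without WG GOM replicate 35, 10 members passed against MAD and 0 against ULB. Among these, UQCRC1 had a change of 1.32 in GOM. The cause was not tested.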

How the results depend on the processing

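Counts are members that passed. With DESeq2, 12 passed from WG GOM to WL GOM, 16 from WG RAD to WL RAD, 3 from WG GOM to WG MAD, 7 from WL GOM to WL RAD and 3 from WL MAD to WL RAD. With no filter on low genes, 2 passed from NC MAD to WG MAD, and 1, 1, 2 and 1 in WG GOM to MAD, WL GOM to RAD, WL GOM to ULB and WL MAD to ULB. With a term for the library split, 9 passed from WG GOM to WL GOM, 1 from NC MAD to WG MAD, 4 from WG MAD to WL MAD, 1 from NC RAD to WG RAD, 3 from WG MAD to WG RAD, 0 from WL MAD to WL RAD, 1 from WL MAD to WL ULB, and in the differences of GOM with RAD and ULB 8 and 4.

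With libraries above the split alone, which leaves fewer samples, 1 passed from NC to WG in each of GOM, MAD and RAD, 1 from WG MAD to WL MAD, 6 from NC MAD to WL MAD, 13 from NC RAD to WL RAD, 0 from NC GOM to MAD and to RAD, 1 from WG GOM to MAD, 8 from WG GOM to RAD, and 0 from WL GOM to RAD, WL GOM to ULB, WL MAD to RAD and WL RAD to ULB. The differences of GOM with MAD, RAD and ULB had 0, 0 and 1. COX7A1 turned to 1.40 from NC GOM to WG GOM and to 0.53 from NC GOM to WL GOM. Without WG GOM replicate 35, 12 passed from WG GOM to WL GOM, 3 from WG GOM to MAD and 9 to RAD, and 10 and 0 in the differences of GOM with MAD and ULB. The cause of these moves was not tested.

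With the replicate block, the numbers that pair the samples gave 7 from NC GOM to ULB (over 4 shared numbers), 24 from WG RAD to ULB and 3 from WL MAD to RAD, and changed no other count by over 1.5 times there. In the other tissue pairs not every same-numbered pair was above 0.1, though nearly all were in WG. In these tissue pairs the block gave 3 from NC MAD to ULB, 7, 33 and 45 from WG GOM to MAD, RAD and ULB, 22 from WG MAD to RAD, 7 and 2 from WL GOM to RAD and ULB, and 2 from WL MAD to ULB. Leaving out each NC ULB sample gave 0 from NC to WG ULB, 13 to 18 from NC to WL ULB, 24 to 40 from NC GOM to ULB, 0 from NC MAD and NC RAD to ULB, and a mean level in NC ULB of 6.33 to 6.53.

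The mean level in NC GOM was 6.13 on TPM without mitochondria-encoded genes, 6.47 over nuclear PCGs, and 5.70 with libraries above the split alone. Over nuclear PCGs it was 6.80 in NC MAD, 6.81 in NC RAD and 6.57, 6.57, 6.63 and 6.62 in WL GOM, MAD, RAD and ULB. The alternatives based on the A-B index were not run. All the other counts stayed within 1.5 times the main one. Named members kept their call in 215 of 215 checks with DESeq2 and in 110 with libraries above the split alone, where 117 lost it.

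The main limits are the 2 NC GOM libraries above the split, so that in GOM the split and the diet cannot be fully told apart, 5 NC ULB samples, and the wide mitochondrial share of TPM. Depth was lowest in WG GOM replicate 35. Libraries above the split also differed widely in mean level. A further divide among them, seen in runs of numbers and in NDUFA4L2, was not tested. The labels do not say whether samples of a group came from separate pigs.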
